A study of Mus musculus with 12 samples.

Results

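Stretches of chromatin that carried an H3K9/14ac peak in cells of old, vehicle-treated dystrophic mice, and none in cells of old mice given trichostatin A (TSA) or of young vehicle-treated mice, are described here. H3K9/14ac is acetylation of histone H3 at lysines 9 and 14, measured by chromatin immunoprecipitation and sequencing (ChIP-seq). Peaks of the 4 H3K9/14ac lists that shared 1 bp or touched were joined to 1 region, over chromosome 1 and chromosome 2 up to position 167064301, which all 4 lists cover. Of 3671 merged regions, 535 (14.6%) met the rule and are called members. They were chosen by the presence or absence of H3K9/14ac peaks in those 3 lists, so their H3K9/14ac values there are a description. Of these, 195 also held a peak in young mice given TSA and 340 did not. All mice were mdx on the C57Bl6 background, so the vehicle groups carry the dystrophin mutation too and there is no healthy control. They were 1.5 months (young) or 12 months (old) of age and received TSA at 0.6 mg/kg/day in saline, or saline alone, into the peritoneum daily for 15 days. The cells were fibro-adipogenic progenitors (FAPs) sorted from muscle by flow cytometry. Neither the sorting gate nor the number of animals behind a library is given in the labels. Each mark, age and treatment has 1 library, so no difference between conditions has a replicate check or a test, and a condition cannot be told apart from its library. Intervals below are exact 95% Clopper-Pearson intervals, and because sequenced tags and neighbouring regions are not independent they cover counting error only.

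FAPs are mesenchymal cells between muscle fibres that support regeneration and can become adipocytes or matrix-producing fibroblasts, which replace muscle in dystrophy. Acetyl groups on histone tails are placed by acetyltransferases, removed by histone deacetylases and bound by bromodomain proteins. TSA blocks class I and II deacetylases. H3K9/14ac is known chiefly from active gene starts, and H3K27ac, acetylation at lysine 27, from active starts and enhancers.

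The promoters of 6 genes show what the members at gene starts look like. They are those of the members with most old vehicle tags among those that overlap the promoter of a protein-coding gene, taken by whether the member had a young TSA peak and whether it had an H3K27ac peak in any list. Each is the 250 bases before the annotated start, in the direction of transcription, from RefSeq on GRCm38.p6, with CpG dinucleotides in capitals. Dab2ip (chr2:35558208-35558457, plus strand) and Igfbp5 (chr1:72874866-72875115, minus strand) stand for members with a young TSA peak and H3K27ac. Adamtsl2 (chr2:27079129-27079378, plus strand) and St8sia6 (chr2:13793521-13793770, minus strand) had a young TSA peak and no H3K27ac peak. Klhdc9 (chr1:171360799-171361048, minus strand) had H3K27ac and no young TSA peak, and Kcnip3 (chr2:127522095-127522344, minus strand) had neither.
Dab2ip: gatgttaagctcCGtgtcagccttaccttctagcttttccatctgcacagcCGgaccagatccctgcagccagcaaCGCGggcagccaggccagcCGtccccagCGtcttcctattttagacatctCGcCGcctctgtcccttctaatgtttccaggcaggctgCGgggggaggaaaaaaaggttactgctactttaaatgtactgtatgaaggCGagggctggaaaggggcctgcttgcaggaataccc
Igfbp5: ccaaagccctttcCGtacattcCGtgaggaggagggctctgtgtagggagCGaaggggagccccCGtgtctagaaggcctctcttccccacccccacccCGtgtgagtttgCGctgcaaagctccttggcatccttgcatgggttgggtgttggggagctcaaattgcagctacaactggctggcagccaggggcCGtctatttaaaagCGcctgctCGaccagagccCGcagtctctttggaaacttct
Adamtsl2: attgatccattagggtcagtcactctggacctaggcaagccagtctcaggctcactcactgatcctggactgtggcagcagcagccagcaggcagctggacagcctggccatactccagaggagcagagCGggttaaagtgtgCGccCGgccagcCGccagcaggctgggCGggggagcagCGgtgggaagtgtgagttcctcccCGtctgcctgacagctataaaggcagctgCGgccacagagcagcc
St8sia6: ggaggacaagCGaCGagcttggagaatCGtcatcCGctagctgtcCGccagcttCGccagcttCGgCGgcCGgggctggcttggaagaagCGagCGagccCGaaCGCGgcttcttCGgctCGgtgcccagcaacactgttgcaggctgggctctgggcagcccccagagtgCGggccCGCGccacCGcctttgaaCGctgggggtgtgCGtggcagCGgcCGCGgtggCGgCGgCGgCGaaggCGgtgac
Klhdc9: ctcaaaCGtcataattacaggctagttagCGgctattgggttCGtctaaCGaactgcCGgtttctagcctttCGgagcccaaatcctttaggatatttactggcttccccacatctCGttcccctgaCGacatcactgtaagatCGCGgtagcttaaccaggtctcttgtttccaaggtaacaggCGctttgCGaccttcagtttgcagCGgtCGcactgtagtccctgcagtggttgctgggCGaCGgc
Kcnip3: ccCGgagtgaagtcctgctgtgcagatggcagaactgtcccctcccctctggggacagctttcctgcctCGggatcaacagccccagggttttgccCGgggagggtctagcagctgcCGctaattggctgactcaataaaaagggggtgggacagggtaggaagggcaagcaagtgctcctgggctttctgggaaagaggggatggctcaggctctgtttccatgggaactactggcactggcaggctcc
The number of CpG in these windows runs from 4 at Kcnip3 and 8 at Adamtsl2 to 30 at St8sia6. The window of Igfbp5 lies in its member over 100 of the 250 bases and that of Kcnip3 over 105, whereas the other 4 lie in their members whole.

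The lists differ in size, and by size they pair across age and treatment. In the compared stretch the H3K9/14ac lists hold 2711 peaks with 452476 tags (young vehicle), 3336 peaks with 631446 tags (young TSA), 3235 peaks with 608674 tags (old vehicle) and 2474 peaks with 426273 tags (old TSA). Both lists that the rule requires to be empty are thus the smaller ones, and the members' own list is among the larger ones. Over the 1709 regions present in all 4 lists, Spearman's rho of the tags was 0.911 between old vehicle and young TSA and 0.879 between old vehicle and either old TSA or young vehicle. It was 0.909 between young vehicle and young TSA, 0.902 between young vehicle and old TSA and 0.898 between young TSA and old TSA. Of the regions in either list, young vehicle shared 72.3% with old TSA, the most of any pair, and 59.2% with young TSA, the least. Old vehicle shared 67.9% with old TSA, 65.7% with young vehicle and 62.7% with young TSA. Young TSA shared 62.2% with old TSA. These measures are thus mixed as to the pairing that list size gives. These points share libraries and are described only. The H3K27ac lists have another order, with 679423 tags in old vehicle and 1080097 in old TSA. A list holds peaks alone, so that no peak does not mean no tags. With the 4 lists cut to equal length the members numbered 231 (ranked by tags) or 275 (by width) instead of 535. Conditions are named as the labels give them, and the peak lists offer no independent check that each library carries the right label.

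The label of the cells was set against marker genes by whether an end of the gene lay within 1000 bp of an old vehicle H3K9/14ac peak. Of the FAP markers in the stretch, 6 of 8 were marked, against 1 of 12 for muscle fibre, 2 of 9 for lymphocytes, 3 of 5 for macrophages and 4 of 5 for endothelium. In the other 3 libraries 5 of the 8 FAP genes were marked. Endothelial gene ends numbered 3 to 4 of 5 and macrophage ends 2 to 3 of 5 over the libraries, so markers of cells other than FAPs were marked in all of them. Their part in the members was not tested.

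Members were mostly small peaks, and this follows in part from the rule. Their 537 old vehicle peaks held 30 to 268 tags (median 63.0) over a median width of 356 bp, and together 6.32% of the tags of the list. Old vehicle peaks of regions in all 4 lists had a median of 194 tags and 765 bp. Members with a young TSA peak had a median of 77.0 old vehicle tags, and those without had 56.0. The share of old vehicle regions that were members was lower in each higher class of tags. It was 73.4% (157 of 214; interval 66.9 to 79.2) under 50 tags, 43.2% (105 of 243) at 75 to 99, 6.25% (16 of 256) at 150 to 199 and 1.39% (6 of 433) at 200 to 299. None of 804 regions with 300 or more tags was a member, which allows a share of up to 0.458%.

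**Figure D1:**
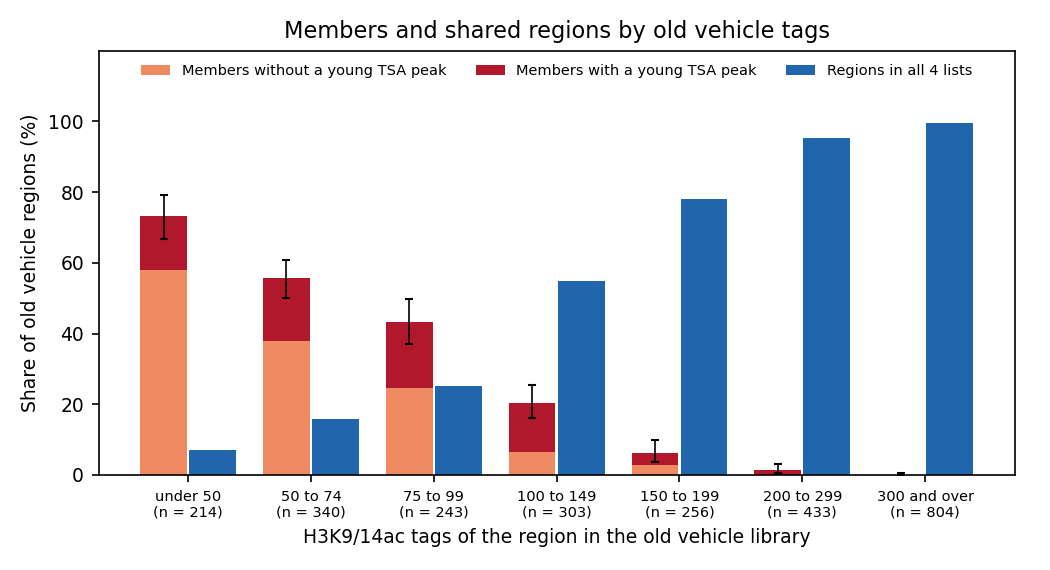
Share of old vehicle H3K9/14ac regions that were members (stacked by young TSA peak) and that were in all 4 lists, by the region's old vehicle tags, with exact 95% intervals on the members' share. Members make up 73.4% of regions under 50 tags and none of those with 300 or more.

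The rule turns on base pairs as well as on tags. The member nearest to a peak of the excluding lists lay 2 bp from it, inside Dab2ip, and the next 2 lay 40 and 50 bp away. In all, 13 members had a gap under 100 bp and 110 had 1000 bp or less. Just outside the rule, 1 region at Dll4 overlapped by 0 bp, being joined through a young TSA peak alone, and others by 16 and 19 bp. To place the members on the scale of the other lists, the tags per kb of each old vehicle peak were multiplied by the median ratio of the libraries in regions of all 4 lists (0.723 for old TSA, 0.788 for young vehicle). On that scale 533 of 535 members lay above the sparsest old TSA peak, 467 above the lowest 5% of old TSA peaks and 78 above their median. For young vehicle the numbers were 533, 396 and 51. The sparsest peak of the whole old vehicle list held 117.5 tags per kb before scaling. The count above the sparsest old TSA peak (85.6 tags per kb) was thus nearly fixed. The scale does not tell whether a peak is listed, since all 340 members without a young TSA peak lay above the lowest 5% of young TSA peaks and 230 above their median.

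Young TSA is the H3K9/14ac list that the rule leaves free. A young TSA peak was found in 36.4% of members (interval 32.4 to 40.7), beside 79.0% of all regions. Among the upper 50% of peaks by tags the members' share was 59.6%, and with lists of equal length it was 36.8% or 33.8%. Old vehicle regions with a young vehicle peak and no old TSA peak had one in 59.7% (74 of 124), and those with an old TSA peak and no young vehicle peak in 76.0% (139 of 183). Within the members the share was 21.0% under 50 tags, 42.9% at 75 to 99, 67.7% at 100 to 149, 56.2% (9 of 16) at 150 to 199 and 100% (6 of 6) at 200 to 299. Over all regions, 659 (18.0%) held a peak in old vehicle and none in old TSA, and 254 (6.92%) the reverse. The mirror set, with a peak in old TSA and none in old vehicle and young vehicle, numbered 190, of which 68 had a young TSA peak.

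Members lay inside genes more often than at their ends. A gene end lay within 1000 bp of 79 members (14.8%, interval 11.9 to 18.1), 341 (63.7%) lay inside a gene beyond that, and 115 (21.5%) outside genes. Whether those inside genes are exonic or intronic was not analysed here. Over all regions 46.8% were at a gene end and 38.9% inside a gene. Regions in all 4 lists were at a gene end in 76.2% (74.2 to 78.2). The shares were 17.1% for the 626 regions with a peak in young TSA alone and 27.4% (21.2 to 34.3) for the mirror set. Members with a young TSA peak were at a gene end in 20.5% and those without in 11.5%. With a limit of 2500 bp the share of members was 23.6%. Of all members 39.8% (35.6 to 44.1) lay within 10000 bp of a region in all 4 lists, close to the 39.5% of regions in young TSA alone. Members formed 447 runs with gaps of at most 10000 bp, of which 388 were a single member. The longest run held 7 members over 12090 bp of Rxra, and the next held 6 over 19019 bp at Hjurp and Mroh2a.

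H3K27ac, which the rule did not use, overlapped a smaller share of members than of all regions. An H3K27ac peak overlapped 37.8% of members in old vehicle (33.6 to 42.0), 50.3% in old TSA (46.0 to 54.6), 47.3% in young vehicle (43.0 to 51.6) and 42.1% in young TSA (37.8 to 46.4). By number of peaks old vehicle was the lowest of the 4, as it was over all 3671 regions (58.2% beside 69.6% in old TSA), and its H3K27ac list is the shortest, with 4210 peaks. Per 1000 tags of the regions with H3K27ac in every list, the members held 23.9 tags in old TSA, 21.6 in old vehicle, 19.9 in young TSA and 19.2 in young vehicle, so that on this scale old vehicle was not the lowest. No H3K27ac list had a peak at 237 members (44.3%, 40.0 to 48.6), beside 25.5% of all regions, 8.19% of regions in all 4 lists, 36.8% of the mirror set and 49.2% of regions in young TSA alone. Members with a young TSA peak lacked H3K27ac in 40.0% and those without in 46.8%.

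**Figure D2:**
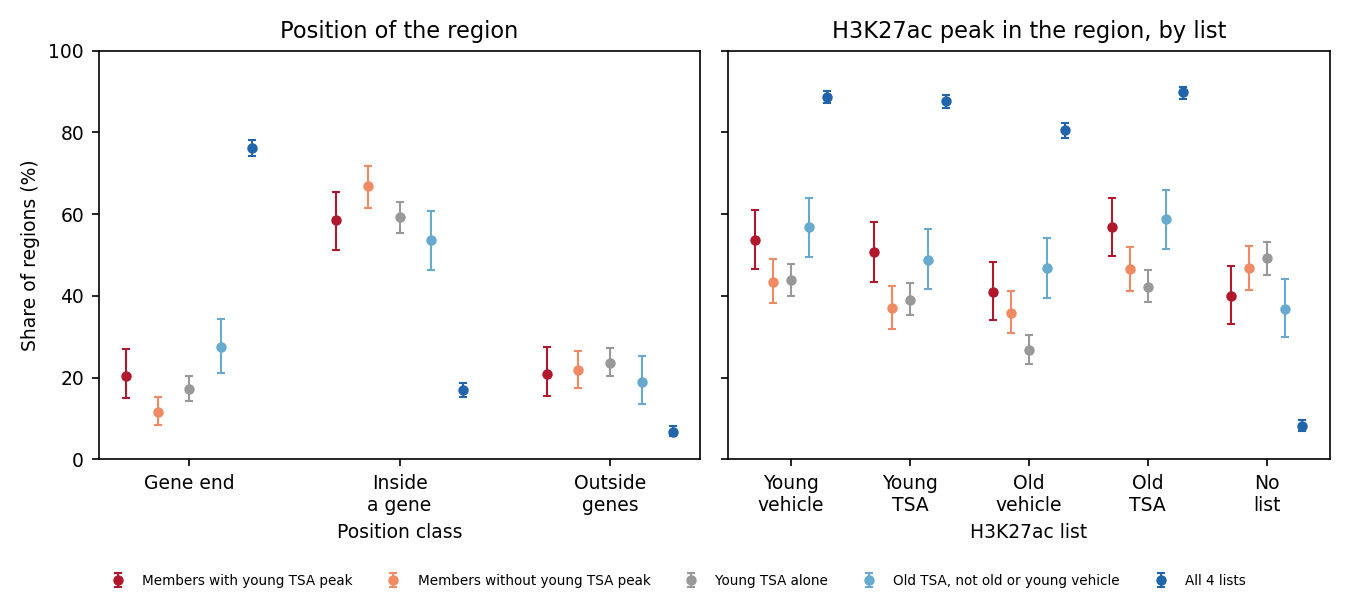
Share of regions by position (left) and with an H3K27ac peak in each list or in none (right), for the member subsets and the compared sets. Points are shares and bars exact 95% intervals, and the regions in all 4 lists stand apart with 76.2% at a gene end and 8.19% without H3K27ac.

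Few members had the same pattern in H3K27ac, and so did few regions of any kind. An H3K27ac peak in old vehicle and none in old TSA was found at 5 members (0.935%, 0.304 to 2.17), beside 0.654% of all regions. These were at Acadl (a mitochondrial acyl-CoA dehydrogenase), Arpc2 (a subunit of the actin-nucleating Arp2/3 complex), Rgl1, Iftap and Snx21, with 5 to 39 H3K27ac tags each, and all lacked a young TSA H3K9/14ac peak. The reverse, H3K27ac in old TSA and not in old vehicle, was found at 72 members (13.5%, 10.7 to 16.6), beside 12.1% of all regions. Both shares are near those of all regions. For age, 63 members (11.8%) had H3K27ac in young vehicle and not in old vehicle, beside 12.5% of all regions, and 12 (2.24%) the reverse, beside 1.12%. In young mice, 42 members (7.85%) had H3K27ac under vehicle and not under TSA, beside 5.56% of all regions, and 14 (2.62%) the reverse, beside 1.69%.

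Where both libraries had an H3K27ac peak, tags were compared after subtracting the median log2 ratio of 2702 regions with H3K27ac in every list. The subtracted value was -0.51 for old vehicle over old TSA, so the tags as deposited were lower in old vehicle. On this relative scale the median member was 0.21 higher in old vehicle than in old TSA (197 members, 148 above 0). The summed tags over all 535 members have the other direction, at 21.6 in old vehicle and 23.9 in old TSA per 1000 shared tags, and they include the 72 members with H3K27ac in old TSA and not in old vehicle. The medians of the ratio were 0.05 over all regions and 0.22 in the mirror set, whose H3K9/14ac pattern is the opposite one. Against young vehicle the members' median was 0.43 (190 members, 168 above 0), beside 0.18 over all regions and 0.37 in the mirror set. Young TSA over young vehicle gave 0.16, beside 0.15 over all regions. H3K27ac peaks covered 42.3% of the members' length in young vehicle, 46.6% in old TSA, 38.4% in young TSA and 32.6% in old vehicle.

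**Figure D3:**
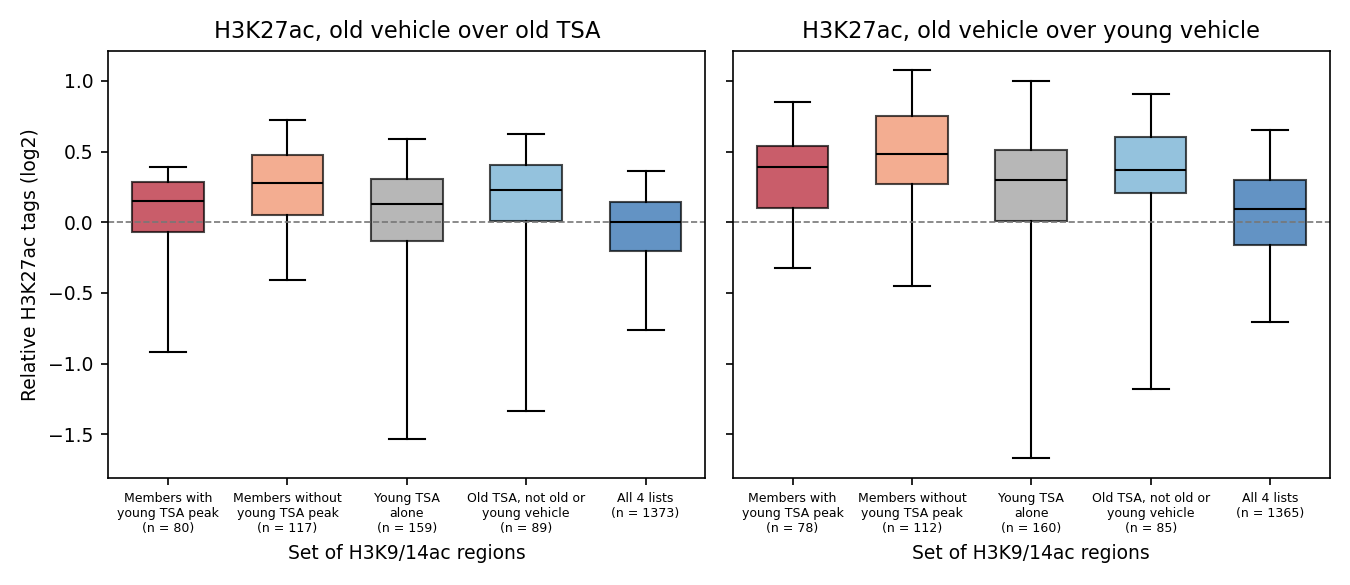
Relative H3K27ac tags (log2) in old vehicle over old TSA (left) and over young vehicle (right), by set of H3K9/14ac regions with a peak in both libraries. Boxes are medians and quartiles and whiskers reach the 5th and 95th percentiles. For old vehicle over old TSA the medians are 0.15 and 0.28 in members with and without a young TSA peak and 0.22 in the mirror set.

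Promoters at members differed in sequence from those at shared regions. The members touched 49 of the 4538 promoter windows of the stretch (250 bases before to 50 after a start), through 44 members. The windows belong to 46 genes. Overlapping windows, such as those of Necab3, were each counted, so the windows are not independent. The median GC content of these windows was 59.7% and the median ratio of observed to expected CpG 0.526, and 20 (40.8%) were over 0.6. Promoters at regions in all 4 lists had medians of 62.3% and 0.796, with 79.9% over 0.6. Over all windows the medians were 52.3% and 0.380, with 36.4% over 0.6. Searched on both strands, CCGCCC, the core of Sp and Klf sites, was in 49.0% of the member windows (34.4 to 63.7), 66.7% at shared regions and 34.9% of all windows. The mirror set had it in 68.3% and regions in young TSA alone in 81.8%. The E-box CAGCTG was in 26.5% (14.9 to 41.1), 14.0% and 17.1%, beside 22.0% in the mirror set and 18.2% in young TSA alone. Of 9 motifs searched, those of AP-1 (TGANTCA), RUNX (TGTGGT) and zinc finger factors such as Gata3 (GATAAG) were each in 8.16% of member windows, those of TEAD (GGAATG) and ETS (AGGAAGT) each in 10.2%, and those of NFI and the RXR dimer in none of 49. Over all windows the shares were 8.66% for AP-1, 15.4% for RUNX, 7.34% for the Gata3 type, 15.4% for TEAD and 9.19% for ETS, with NFI in 0 and the RXR dimer in 2 of 4538. Of the promoters printed above, that of Adamtsl2 holds CCGCCC once and CAGCTG at 2 places. That of Kcnip3 holds CAGCTG at 1, in the part of the window outside its member. A match is a description of the letters and not a bound site. Of the 44 members at promoters, 31 (70.5%, 54.8 to 83.2) had no H3K27ac peak in any list, against 91 of 1237 such regions in all 4 lists (7.36%).

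At the Dab2ip start the member held 221 H3K9/14ac tags in old vehicle and 135 in young TSA, and H3K27ac was listed with 90 tags in young vehicle and 60 in old TSA. Dab2ip is a GTPase-activating protein for Ras. At Igfbp5, which encodes a secreted binder of insulin-like growth factors, the member held 164 and 145 tags, with H3K27ac tags of 112 in young vehicle, 133 in young TSA and 186 in old TSA and no old vehicle peak. Both starts thus had H3K9/14ac and no H3K27ac peak in old vehicle, and the reverse in old TSA and in young vehicle. The H3K9/14ac part of this follows from the rule. H3K27ac in old TSA and not in old vehicle was found at 12.1% of all regions. The start of Adamtsl2, a secreted glycoprotein of microfibrils, held 208 and 114 H3K9/14ac tags and no H3K27ac peak in any list.

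Members were spread over many genes and dense at few. Of 2825 protein-coding genes of the stretch, 377 (13.3%) had a member in the gene or 10000 bp either side, 95 had at least 2 and 8 had at least 5. The 20 genes with the largest summed member length hold 93 members. Genes with a member were longer, with a median of 41769 bp beside 26366 bp for genes with an old vehicle peak and no member.

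**Figure D4:**
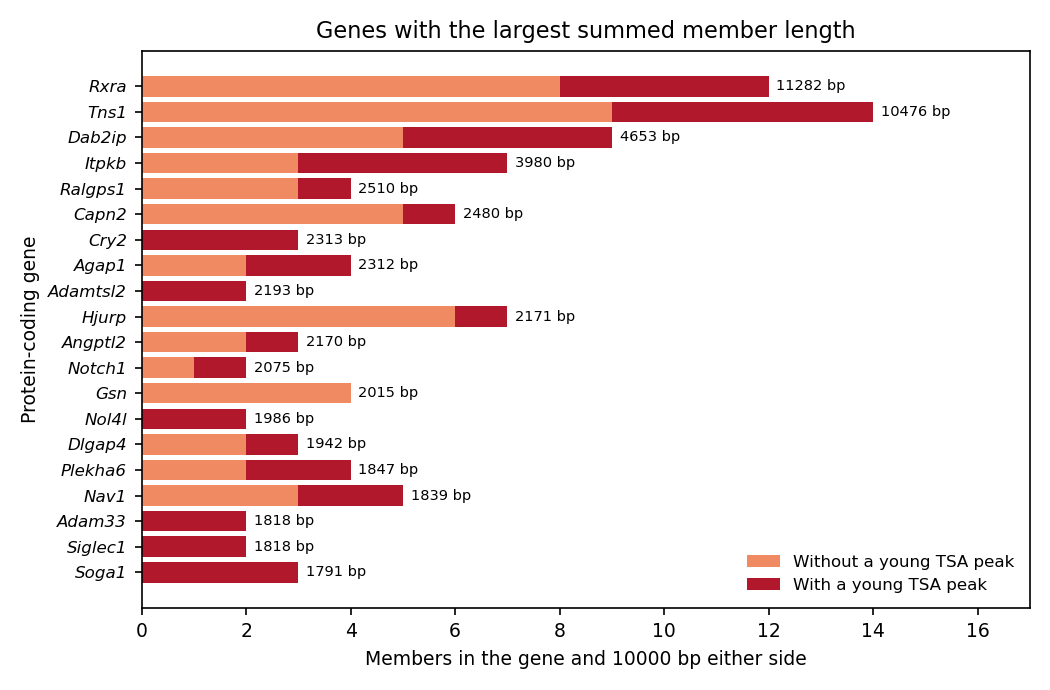
Members in each of the 20 protein-coding genes with the largest summed member length, by young TSA peak, with that length in bp beside the bar. Tns1 has 14 members and Rxra 12. Adam33 and Siglec1 share the same 2, and the 3 of Angptl2 are among the 4 of Ralgps1.

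Rxra encodes retinoid X receptor alpha, the partner of PPAR, retinoic acid and other nuclear receptors. It had 12 members with 11282 bp (chr2, 27676445 to 27763319). Old vehicle peaks in them covered 10996 bp, which made up 61.5% of its old vehicle H3K9/14ac length. Along transcription the old vehicle tags of the members were 268, 159, 189, 102, 121, 52, 82, 190, 84, 99, 126 and 125. Young TSA peaks lay at the first 2 (150 and 46 tags) and the last 2 (91 and 115). The first member began 543 bp from the nearest young vehicle peak and 564 bp from the nearest old TSA peak. The promoter itself was marked in all 4 lists. H3K27ac was absent from every list at 5 of the 12, present in all 4 at 2, and present in old TSA but not old vehicle at 4.

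Tns1 encodes tensin 1, which ties integrins to actin. Its 14 members covered 10476 bp (chr1, 73910232 to 74124548). Old vehicle peaks in them covered 9930 bp, 45.0% of the old vehicle length. The members held 34 to 201 old vehicle tags (median 104.5). At 5 of them young TSA had a peak. The most tagged member held 201 tags in old vehicle and 204 in young TSA, with 387 H3K27ac tags in young vehicle, 382 in young TSA, 407 in old TSA and 332 in old vehicle. H3K27ac was in all 4 lists at 7 of the 14 members, where Rxra had it at 2 of 12, and in none at 4.

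**Figure D5:**
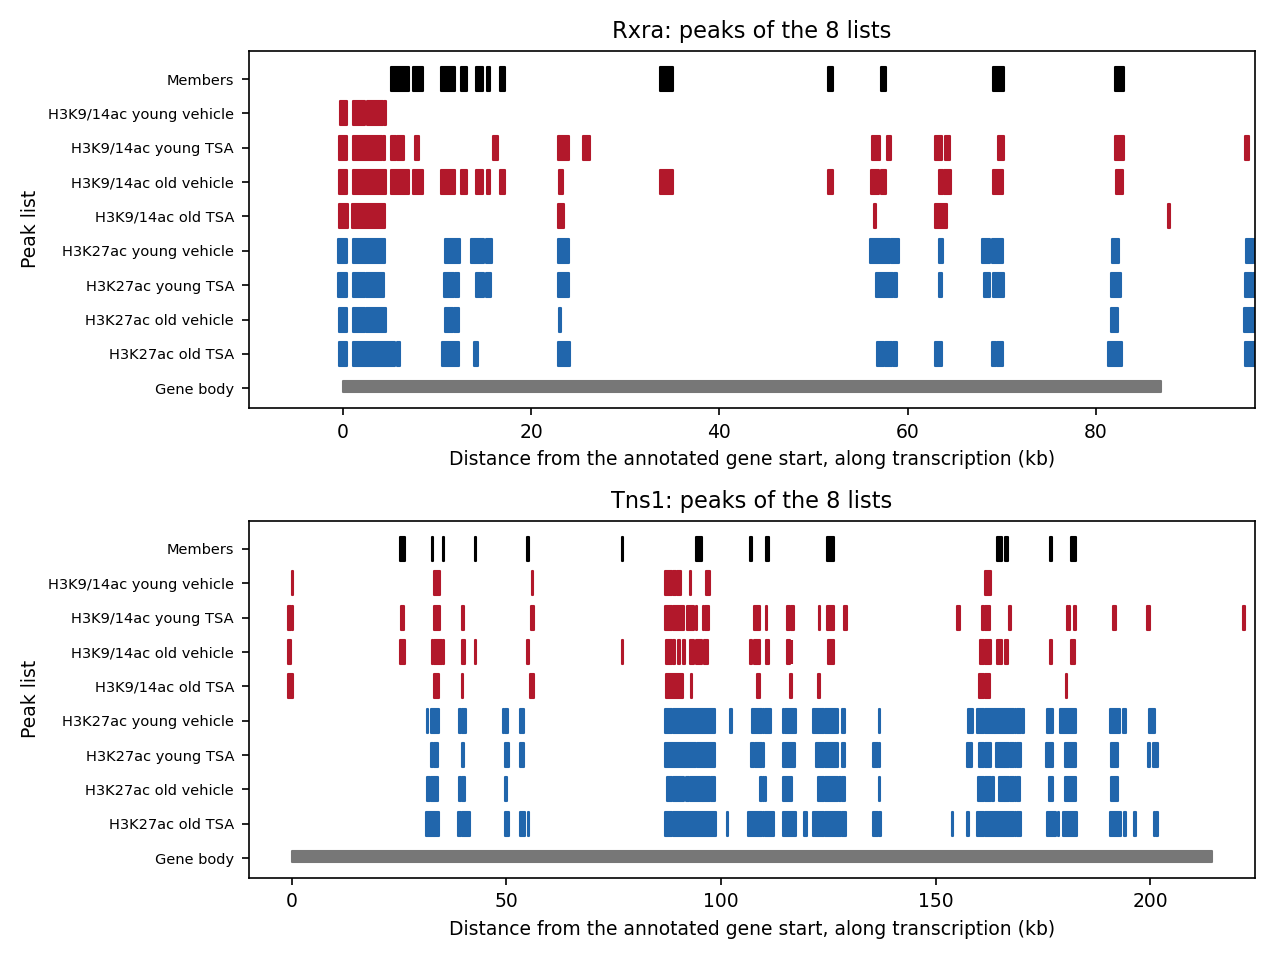
Peaks of the 8 lists along Rxra and Tns1, by distance from the annotated gene start in kb. Members (black) lie within the gene bodies at both genes, and the block at the Rxra start is shared by all 4 H3K9/14ac lists.

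Other genes differed in which marks accompanied the members. Capn2, a catalytic subunit of the protease calpain, had 6 members of 43 to 94 tags, of which 5 had H3K27ac in all 4 lists. Cry2, a repressor of the circadian clock, had 3 members of 41 to 93 tags, all with a young TSA peak and with H3K27ac in all 4 lists. Notch1, the receptor, had 2 members with 153 and 100 tags, both with H3K27ac in young vehicle and old TSA and not in old vehicle. Gsn, the actin-severing protein gelsolin, had 4 members and none with a young TSA peak. Itpkb, an inositol trisphosphate kinase, had 7 members, 4 of them with a young TSA peak. Hjurp, the chaperone that loads the centromeric histone CENP-A, had 7 members of 66 to 143 tags, 5 of them in the gene body. None had H3K27ac in any list and 1 had a young TSA peak. Those 7 were the densest of all members, at 328.8 to 405.8 tags per kb, followed by 1 at Plcg1 with 322.4. These 7 were singled out after their values were seen. Peaks of the excluding lists there were dense too. Old TSA had 1 peak, over the gene start, with 871 tags over 1893 bp. Young vehicle had 1275 tags over 2683 bp in 2 peaks. The smaller of these, with 198 tags over 699 bp, lay in the gene body and the other over the start. High density at this locus was thus not particular to the members, but in old TSA it was found at the gene start alone.

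Among the 10 members with most tags in each subset, those with a young TSA peak included Alx4 (a homeobox factor, 205 tags in old vehicle and 137 in young TSA), Dnm1 (dynamin 1, 202 and 53), Lefty2 (a secreted inhibitor of Nodal, 161 and 82) and Adam33 (a membrane metalloprotease, 160 and 113). Those without included Fmn2 (a formin, 182 tags), Klhdc9 (175), Ccdc187 (166), Fbln7 (fibulin 7, 152) and Stk39 (a kinase of ion transport, 147). At Fbln7 and Stk39 H3K27ac was listed in old TSA alone, with 122 and 53 tags. The same held in the other subset for Lefty2 (71 tags) and the most tagged Rxra member (168 tags). This H3K27ac pattern was found at 4.11% of members, beside 2.51% of all regions.

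Gene lists for this tissue were read beside the 13.3% of all genes. They were chosen with earlier results of these data known, so their counts support no direction. Of 158 listed genes in the stretch, 50 (31.6%) had a member in the gene or 10000 bp either side. Among genes with an old vehicle peak the share was 39.7% (50 of 126), beside 20.5% of all such genes. With the gene body alone, 40 of the 158 had a member, beside 9.73% of all genes. The members counted below for Nr4a2, Nr6a1, E2f1 and Fzd5 lay outside the gene body. Adhesion and actin genes had members at 12 of 26, among them the integrins Itga6 and Itgav, Abl2, Fmnl2 and Cd44 beside Tns1, Dab2ip, Nav1 and Gsn. Nuclear receptor and adipogenesis genes had 7 of 15, with Nr4a2, Nr5a2, Nr6a1, Ptges, Ncoa3 and Klf7 beside Rxra. Wnt, Notch and Hedgehog genes had 6 of 15, namely the effector Gli2, the receptors Notch1 and Fzd5, the ligand Dll4, the co-receptor Lrp4 and Ccn5. Matrix genes had 7 of 21, namely Col5a1 with 5 members, Fbn1, Lamc1, Prelp, Matn4, Adamtsl2 and Fbln7. TGF-beta and BMP genes had 3 of 13, the receptor Acvr1, the co-receptor Eng and the ligand subunit Inhbb. Senescence and secreted factor genes had 4 of 12 (Igfbp5, Ptges, Tnfrsf11a and E2f1), acetylation genes 3 of 8 (the deacetylase Hdac4, the bromodomain reader Brd3 and the coactivator Ncoa3), and immediate early genes 2 of 6 (Nr4a2 and Dusp2). None of 9 housekeeping genes had a member, and all 9 ends were marked in every list. With so few genes, and gene length not matched, this is not read as a difference from the 20.5%.

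Markers of cell types had members at 3 of 8 FAP genes (Gsn, Dpp4 and Ddr2), 3 of 12 muscle fibre genes (Casq1, Tnnc2 and Chrna1), 1 of 5 macrophage genes (Slc11a1), 2 of 5 endothelial genes (Eng and Egfl7), 1 of 3 pericyte genes (Rgs4) and 1 of 1 muscle stem cell gene (Cxcr4). None of 9 lymphocyte and none of 2 Schwann cell genes had one, and no tenocyte gene lies in the stretch. These counts include members up to 10000 bp from a gene. The members counted for Ddr2, Cxcr4 and Slc11a1 lay outside the gene body. So did those of the 3 muscle fibre genes. That of Casq1, 18571 bp from its gene start, lay in another gene, that of Tnnc2 lay in Snx21, and that of Chrna1 lay outside genes. In bulk cells, a mark in fewer cells and less of it per cell cannot be told apart.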

How the data were processed

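The deposited values are whole-number tag counts per peak, 1 list per library, not normalized, per the file headers. The headers name HOMER's program for differential peaks, run with each library set against itself. The submitters' processing notes list TopHat2 2.0.9, Bowtie 0.12.7, MACS2, HOMER, DESeq2, HTSeq 0.6.1p1 and build GRCm38, with no step named for any. The lists break off along the genome (77135 complete peaks read), and the compared stretch holds 12.5% to 12.8% of the H3K9/14ac peaks that the headers count. Total tags per library were not used. The 4 input samples were not analysed here.

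Regions were merged with a gap of 0 bp, and sets, overlaps (1 bp or more), distances and intervals were computed with Python 3.11.15 and SciPy 1.17.1, with figures from matplotlib 3.10.9. The code was tested on simulated data. H3K27ac tags of a peak were shared out by the length it overlapped. Genes and promoter sequences are from RefSeq (GRCm38.p6), matched by symbol (285 of 285 listed genes). Motifs were searched in promoter windows, because no genome was used. The planned search in the central 300 bp of members was not run.

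The members and lists were chosen with earlier results of these data known. Named genes are the 20 with the largest summed member length, the nearest gene of the 10 members with most tags in each subset, and every listed gene with a member. The genes of printed promoters, the 5 members with H3K27ac in old vehicle and not old TSA, and those marked as such were named outside this rule. Alternatives changed the merging, the peak threshold, list length, distances and overlap.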

Additional observations from a re-analysis of the deposited data

Results flagged for a closer look

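The H3K27ac tags at members, relative to regions with H3K27ac in every list, had opposite signs for TSA over vehicle at the 2 ages where both libraries had a peak. The median log2 value was 0.16 in young mice (211 members, 156 above 0) and -0.21 in old mice (197 members, 49 above 0). Over all regions the medians were 0.15 and -0.05, and in the mirror set 0.09 and -0.22. The signs do not differ in the tags summed over all members, which per 1000 tags of those regions were 19.2 in vehicle and 19.9 in TSA in young mice, and 21.6 and 23.9 in old mice. With 1 library per condition the difference was not tested.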

How the results depend on the processing

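Of 44 alternatives, 17 moved a value beyond its interval or by over 1.5 times. The number of members was 230 with the upper 50% of each list by tags, 231 and 275 with lists of equal length ranked by tags and by width, and 189 with peaks of 75 or more tags, an alternative chosen after seeing the data. The share with a young TSA peak was 41.6% when peaks within 1000 bp were merged, 59.6% in the upper 50% and 54.0% at 75 or more tags. The gene end share was 11.2% at 500 bp, 23.6% at 2500 bp and 19.0% at 75 or more tags. H3K27ac within 1000 bp of members was found in 56.3% (young vehicle), 52.7% (young TSA), 47.7% (old vehicle) and 58.1% (old TSA), and at 50% coverage in 42.2% for young vehicle. Members near a region of all 4 lists were 30.1% at the shorter distance tried and 54.6% at the longer one, the reported limit being 10000 bp. No paired analysis was possible because each group has 1 library, and for the same reason no replicate could be left out. Lists hold peaks alone, so tags below a list's threshold are not seen.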

Other observations

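Some members lay at the starts of developmental transcription factors and were named after their values were seen. The promoters of Gata3, Lmx1b and Tfcp2l1 each overlapped a member with no H3K27ac peak in any list. Their old vehicle tags were 41, 81 and 117 and their young TSA tags 89, 63 and 101. At En1, a homeobox gene, the member held 48 and 69 tags, and H3K27ac was listed in every condition except old vehicle.

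Of 123 microRNA hairpins of the stretch, 9 lay within 10000 bp of a member and 0 overlapped one. Beside this, 13.3% of protein-coding genes had a member in the gene or 10000 bp either side. The hairpin counts are a description. The nearest hairpin was Mir3089, 396 bp from a member of 73 tags. Mir126a, which lies in Egfl7 and is known from endothelium, was 9790 bp from the member at the Egfl7 start, which held 106 old vehicle and 69 young TSA tags.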
